A study of Mus musculus with 6 samples.

Results

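The cyclin-dependent kinase inhibitors are the proteins that hold back the kinases of the cell cycle, and the 8 mouse genes that carry the name were examined here: *Cdkn2a*, *Cdkn2b*, *Cdkn2c* and *Cdkn2d* of the INK4 family, *Cdkn1a*, *Cdkn1b* and *Cdkn1c* of the CIP/KIP family, and *Cdkn3*. They were found by gene symbol in a table of whole-transcript mouse microarrays made by Affymetrix, are 8 of its 20405 genes, and have 9 probe sets, with the brighter of the pair kept for *Cdkn1b*. The arrays held RNA from M0505 cells, a line of mouse ovarian surface epithelial (OSE) cells of the FVB/N strain used at early passage (3 arrays), and from STOSE cells, the line that arose when M0505 cells transformed spontaneously over long culture (3 arrays). Neither line was engineered or treated, and both were grown in the same OSE medium with serum and EGF. Each group is a single line, so the arrays measure the spread between samples of a line and not between mice. Values are robust multi-array average (RMA) signals on a log2 scale, on which a difference of 1 is 2-fold.

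INK4 proteins bind CDK4 and CDK6 and keep D cyclins from activating them, which leaves the retinoblastoma protein active and the cell in G1. CIP/KIP proteins bind whole complexes of cyclin and kinase, above all those of CDK2, and help to assemble those of CDK4. CDKN3, despite its name, is a phosphatase that removes an activating phosphate from CDK2 and is itself made in dividing cells. *Cdkn2a* also encodes ARF, a protein read in another frame that protects p53 from MDM2, and *Cdkn1a* is a classic p53 target.

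In STOSE cells *Cdkn2b* (p15) and *Cdkn2a* (p16 and ARF) fell to a fraction of their M0505 levels, while none of the other 6 inhibitor genes moved by as much as 2-fold. *Cdkn2c* (p18) and *Cdkn3* were modestly higher in STOSE cells, and the p21, p27, p57 and p19 genes *Cdkn1a*, *Cdkn1b*, *Cdkn1c* and *Cdkn2d* were not past the test. A gene was called at a Benjamini-Hochberg adjusted p under 0.05 from limma and a fold change of at least 2. Of the 8 genes 2 were called, both lower, against 12.5% of all genes called in either direction, 7.59% called lower and 4.9% called higher. By the adjusted p alone 4 of the 8 passed, against 56.5% of all genes, 2 of them higher (31.6% of all genes) and 2 lower (24.8%). The values of the 3 STOSE arrays lay clear of those of the 3 M0505 arrays in 5 of the 8, against 64.6% of all genes, so that the last share lies close to the background. All 6 arrays of each of the 8 genes lay above 4.74, the 95th percentile of 1134 probe sets of olfactory receptor genes, which served as a measure of background. Over all genes 69.8% of the values lay above it.

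**Figure D1:**
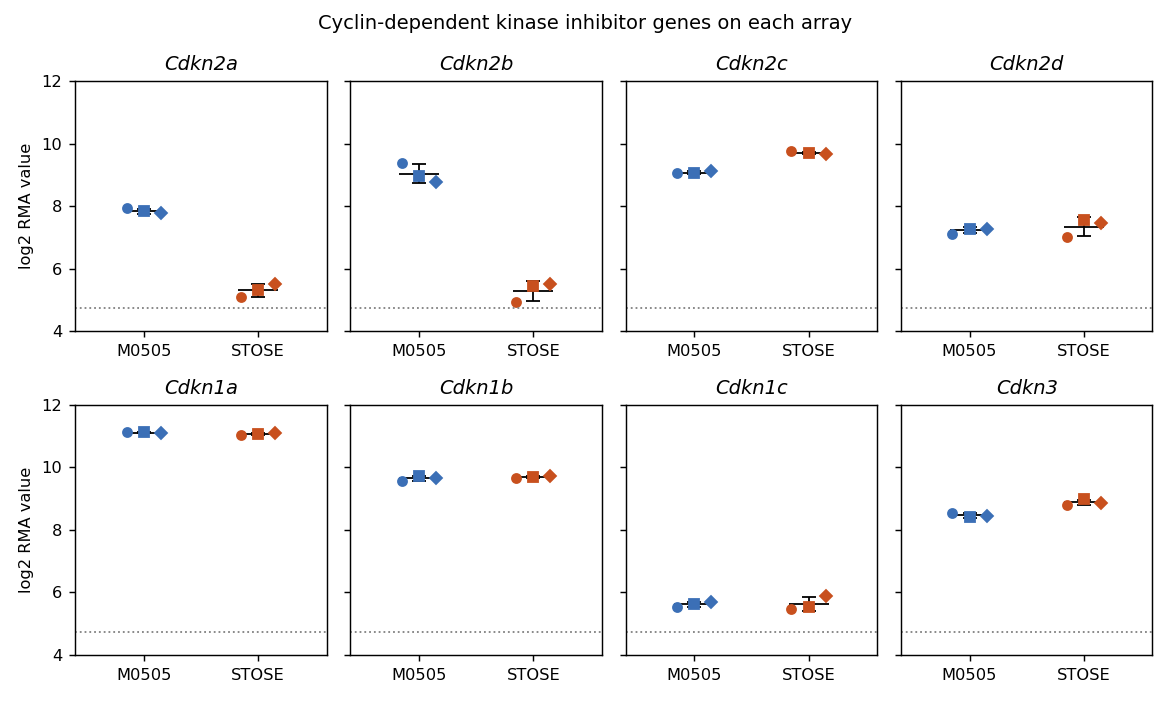
Log2 RMA values of the 8 inhibitor genes on each of the 3 M0505 arrays (blue) and 3 STOSE arrays (orange), with circle, square and diamond for replicates 1, 2 and 3, a dash and bar for the mean ± SD, and a dotted line at 4.74, the background measure. *Cdkn2a* and *Cdkn2b* drop to between 4.93 and 5.51 in STOSE cells, while the other panels stay nearly level.

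*Cdkn2b* encodes p15, an inhibitor of CDK4 and CDK6 that TGF-beta induces in epithelial cells. Its log2 values were 9.37, 8.98 and 8.78 on the M0505 arrays and 4.93, 5.44 and 5.51 on the STOSE arrays. The lines lay far apart, with STOSE replicate 1 only just above the background measure. The mean fell from 9.04 ± 0.30 (SD, n = 3) to 5.29 ± 0.32 (SD, n = 3), a log2 fold change of −3.75 (standard error 0.19, limma adjusted p = 8.61e-07), which leaves 7.44% of the M0505 level. The 95% confidence interval of the ratio of STOSE to M0505 ran from 0.0553 to 0.1001. Only 156 of the 20405 genes had a larger absolute log2 fold change. Since each array reads a whole culture, fewer cells with the transcript and less of it per cell cannot be told apart.

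*Cdkn2a* lies beside *Cdkn2b* on chromosome 4. It had log2 values of 7.92, 7.83 and 7.77 in M0505 cells and of 5.09, 5.32 and 5.50 in STOSE cells. Again no array of either line overlapped the other line. The log2 fold change was −2.54 (standard error 0.10, limma adjusted p = 3.27e-07), which leaves 17.2% of the M0505 level (95% confidence interval of the ratio 0.146 to 0.203). The table has a single probe set for the gene, so its p16 and ARF transcripts cannot be told apart. The arrays took the same order in both genes: M0505 replicate 1 was the highest M0505 array and replicate 3 the lowest. STOSE replicate 3 was the highest STOSE array and replicate 1 the lowest. This order was not particular to the pair, since *Cdkn1a* took it in both lines and *Cdkn1b* and *Cdkn1c* on the STOSE arrays. With each array left out in turn, the log2 fold change lay between −3.88 and −3.57 for *Cdkn2b* and between −2.64 and −2.43 for *Cdkn2a*.

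The genes that fell have 3 promoters between them, shown here because both genes were measured as lower. The single probe set of *Cdkn2a* does not separate its 2 starts, so the output of each promoter was not measured. In the RefSeq promoter table (assembly GRCm38.p6, minus strand for all 3), *Cdkn2a* has a start farther upstream and another inside the gene. By position, the upstream start is labelled here as that of ARF and the inner start as that of p16. Each line gives the 250 bases before an annotated start, 5′ to 3′, in lower case with matches to TTTGAA (the core of the cell cycle homology region, CHR), to the E2F sequences TTTCCCGC, TTTGGCGC and TTCCCGCC, to CCAAT and to the GC box GGGCGG in capitals, on either strand.
Cdkn2b, chr4:89311033-89311282: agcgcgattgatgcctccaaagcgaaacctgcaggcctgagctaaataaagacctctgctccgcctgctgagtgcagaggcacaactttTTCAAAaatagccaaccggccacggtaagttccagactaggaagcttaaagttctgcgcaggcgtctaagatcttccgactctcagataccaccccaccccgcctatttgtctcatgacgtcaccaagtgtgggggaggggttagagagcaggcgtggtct
Cdkn2a, ARF start, chr4:89294620-89294869: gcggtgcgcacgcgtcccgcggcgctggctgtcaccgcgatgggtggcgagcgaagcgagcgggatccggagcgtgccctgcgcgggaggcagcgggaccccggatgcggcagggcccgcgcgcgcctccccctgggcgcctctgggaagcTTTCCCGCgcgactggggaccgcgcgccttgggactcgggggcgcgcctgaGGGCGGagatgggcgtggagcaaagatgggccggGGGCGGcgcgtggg
Cdkn2a, p16 start, chr4:89282193-89282442: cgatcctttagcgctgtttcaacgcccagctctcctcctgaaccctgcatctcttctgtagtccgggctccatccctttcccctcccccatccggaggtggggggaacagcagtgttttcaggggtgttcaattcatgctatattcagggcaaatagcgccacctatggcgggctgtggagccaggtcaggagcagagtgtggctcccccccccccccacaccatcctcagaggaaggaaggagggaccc
The ARF window was the richest in G and C, at 78.4% with 40 CpG dinucleotides, and held 1 E2F match and 2 GC boxes. The p16 window had 7 CpG and none of these motifs, and the *Cdkn2b* window 53.6%, 12 CpG and 1 TTTGAA match. Over all 32851 windows the median was 52.4% G and C with 6 CpG, and 2.69% held an E2F match and 32.7% a GC box, while TTTGAA was found in 5252. Neither TATAAA nor CACGTG was found in any window of the members. These are matches of letters, and binding was not measured.

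*Cdkn2c* encodes p18, the INK4 protein whose gene also lies on chromosome 4 but away from that pair. Its log2 values were 9.05, 9.05 and 9.11 in M0505 cells and 9.75, 9.68 and 9.66 in STOSE cells. All STOSE arrays lay above all M0505 arrays, with an SD of 0.04 in M0505 cells and of 0.05 in STOSE cells. The difference was 0.63 on the log2 scale (standard error 0.06, limma adjusted p = 2.76e-05), or 1.54-fold higher in STOSE cells, past the adjusted p and under the 2-fold threshold. A total of 4770 genes differed by more. *Cdkn2d*, the gene of the INK4 protein p19, had 7.12, 7.28 and 7.28 in M0505 cells and 7.01, 7.57 and 7.45 in STOSE cells. STOSE replicate 1 lay under every M0505 array and the other two STOSE arrays above them, so the lines overlapped. The log2 fold change of *Cdkn2d* was 0.12 (standard error 0.14, limma adjusted p = 0.492), and its 95% confidence interval ran from a ratio of 0.872 to 1.35. That value rested on single arrays: it was 0.28 without STOSE replicate 1 (limma adjusted p = 0.0183, past the adjusted p and under 2-fold), 0.0024 without STOSE replicate 2 and 0.06 without either STOSE replicate 3 or M0505 replicate 1.

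*Cdkn1a* encodes p21. On the arrays of M0505 cells it stood at 11.13, 11.11 and 11.09, and on those of STOSE cells at 11.03, 11.05 and 11.08. The STOSE arrays were the lower ones, but the highest of them came very close to the lowest M0505 array. The log2 fold change was −0.06 (standard error 0.05, limma adjusted p = 0.403), and the interval of the ratio, 0.883 to 1.05, held no change of 2-fold either way. *Cdkn1b*, the gene of p27, gave 9.57, 9.73 and 9.67 in M0505 cells and 9.66, 9.70 and 9.73 in STOSE cells. Those arrays overlapped, with a log2 fold change of 0.04 (standard error 0.06, limma adjusted p = 0.594) and a ratio between 0.932 and 1.14. Its dimmer probe set, at a mean of 6.31 over the 6 arrays, also overlapped between the lines and gave −0.02 (standard error 0.08).

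*Cdkn1c* encodes p57 and is imprinted, with expression from the maternal allele. Its log2 values were 5.53, 5.63 and 5.69 in M0505 cells, against 5.46, 5.53 and 5.87 in STOSE cells. The arrays overlapped, and STOSE replicate 3 was higher than the rest. The log2 fold change was 0.0026 (standard error 0.11, limma adjusted p = 0.986), with a ratio between 0.842 and 1.19. It turned to −0.12 without STOSE replicate 3 and to −0.04 without M0505 replicate 1, neither of them past the test.

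*Cdkn3*, the phosphatase gene, had log2 values of 8.55, 8.40 and 8.46 in M0505 cells and of 8.79, 8.97 and 8.87 in STOSE cells. Every STOSE array exceeded every M0505 array. The difference of 0.41 on the log2 scale (standard error 0.07, limma adjusted p = 0.00133) is 1.33-fold, with an interval from 1.18 to 1.49, and like that of *Cdkn2c* it was past the adjusted p and under 2-fold. In a list of 25 other proliferation genes, 21 had a larger log2 fold change than *Cdkn3* and 20 a larger one than *Cdkn2c*. The list's median was 0.91, against 0.08 over all genes.

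For each of these higher genes an upstream window is given for comparison with those above, cut at the outermost annotated start. The same motifs are in capitals (GRCm38.p6, minus strand for *Cdkn2c* and plus strand for *Cdkn3*).
Cdkn2c, chr4:109666757-109667006: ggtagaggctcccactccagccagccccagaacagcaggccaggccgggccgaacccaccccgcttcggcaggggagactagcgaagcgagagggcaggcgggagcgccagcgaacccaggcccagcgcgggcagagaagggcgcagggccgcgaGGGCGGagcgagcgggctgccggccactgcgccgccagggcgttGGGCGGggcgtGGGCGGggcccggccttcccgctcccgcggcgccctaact
Cdkn3, chr14:46760291-46760460: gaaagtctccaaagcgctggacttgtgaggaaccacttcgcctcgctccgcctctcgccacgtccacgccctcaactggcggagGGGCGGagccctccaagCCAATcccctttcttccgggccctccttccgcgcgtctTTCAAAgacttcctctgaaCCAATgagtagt
The 170 bases of *Cdkn3* hold 1 TTTGAA match, read on the other strand, with 2 CCAAT boxes and 1 GC box. The 250 bases of *Cdkn2c* shown hold 3 GC boxes and none of the other motifs. Another *Cdkn2c* window, at a start inside the gene (chr4:109665373-109665622), is not shown. It held none of these motifs, and had 42.8% G and C with 6 CpG. The CCAAT box was found in 33.8% of all windows. The promoter table held 10 windows for 7 of the 8 genes.

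**Figure D2:**
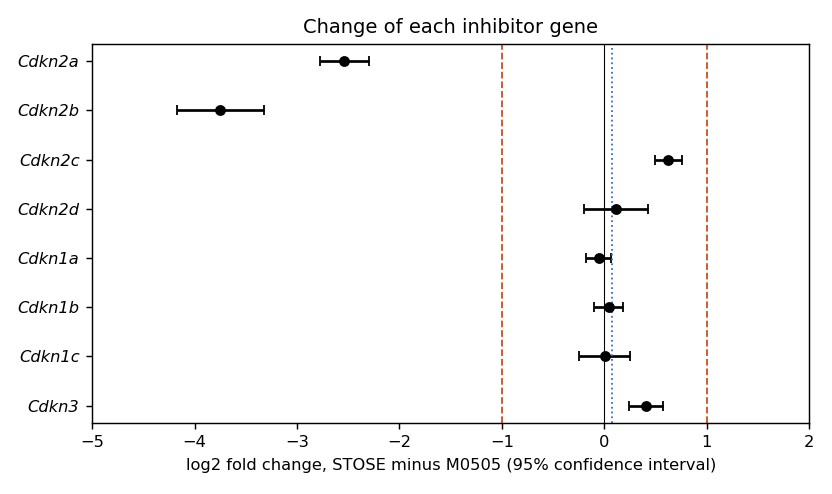
Log2 fold change of STOSE minus M0505 cells for each inhibitor gene, with limma's 95% confidence interval from 3 arrays per line. Dashed lines mark 2-fold, and the dotted line marks 0.08, the median of all genes: the points of *Cdkn2a* (−2.54) and *Cdkn2b* (−3.75) lie beyond 2-fold, and the intervals of the other 6 genes stay within it.

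Ordered by log2 fold change, *Cdkn2b* was lowest and *Cdkn2a* next, with confidence intervals that did not meet (−4.18 to −3.32 and −2.78 to −2.30). *Cdkn1a*, *Cdkn1c*, *Cdkn1b* and *Cdkn2d* followed, and their intervals all overlapped. *Cdkn3* and *Cdkn2c* stood at the top with intervals of 0.24 to 0.57 and 0.49 to 0.76, which also overlapped. Differences between members of a family were formed within each array and compared over 9 pairs. The fall of *Cdkn2b* exceeded that of *Cdkn2a* by 1.21 on the log2 scale (standard error 0.15). This gap lay in M0505 cells, where *Cdkn2a* minus *Cdkn2b* averaged −1.20, against 0.009 in STOSE cells. The STOSE means of *Cdkn2a* (5.30) and *Cdkn2b* (5.29) were alike and not far above the background measure. Whether nearness to background limited either fall was not tested. *Cdkn2c* and *Cdkn2d* differed by 0.51 (standard error 0.20), and *Cdkn1a* and *Cdkn1b* by −0.10 (standard error 0.05). These pairs and the other 4 INK4 pairs gave an exact permutation p = 0.1, two-sided, the smallest that 3 arrays against 3 allow (adjusted p = 0.129 over the 9 pairs, so none passed). The pairs of *Cdkn1c* with *Cdkn1a* and with *Cdkn1b* gave an exact permutation p = 0.8.

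The scale of the arrays bears on the small differences. Over genes with a symbol, the median log2 value was 6.46 to 6.49 on M0505 arrays and 6.25 to 6.29 on STOSE arrays. Centring each array on that median raised the median log2 fold change of all genes by 0.20, to 0.28, and changed the calls from 1000 higher and 1548 lower to 1466 higher and 1177 lower. On that scale *Cdkn1a* turned to 0.14 (limma adjusted p = 0.0394), *Cdkn1b* stood at 0.24 (limma adjusted p = 0.00879) and *Cdkn1c* at 0.20 (limma adjusted p = 0.138), all far from 2-fold. Relative to the median of all genes, on either scale, *Cdkn2b* stood at −3.82, *Cdkn2a* at −2.61, *Cdkn1a* at −0.13, *Cdkn1c* at −0.07, *Cdkn1b* at −0.03, *Cdkn2d* at 0.04, *Cdkn3* at 0.33 and *Cdkn2c* at 0.55.

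Likeness to other genes was measured as the Euclidean distance over the 6 arrays after each gene was centred on its own mean, and is a description with no test. Nearest to *Cdkn2a* were *Fzd4*, a Wnt receptor gene, at a distance of 0.11 (log2 fold change −2.62), and *Dync1i1*, a dynein chain gene, at 0.16. Nearest to *Cdkn2b* were *Plxdc1* at 0.36 (log2 fold change −3.86) and *Dnajc6* at 0.43. *Cdkn2c* lay nearest *Gm6266* and *Xpnpep1*, and *Cdkn3* nearest *Terf1*, a telomere protein gene, and *Znhit1*. *Rrm1*, a subunit of ribonucleotide reductase, at 0.02, and *Eny2*, at 0.03, were nearest to *Cdkn1a*. *Gast* and *Olfr720* were nearest to *Cdkn1b*, *Kcnh5* and a gene listed as 544988 to *Cdkn1c*, and *Serpinb1b* and *Gdf2* to *Cdkn2d*. Of these, *Olfr720*, *Kcnh5*, *Serpinb1b* and *Gdf2* lay under the background measure in both lines.

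The genes around each inhibitor gene, within 500 kb in RefSeq, were read next. Near *Cdkn2a* and *Cdkn2b* none of 10 other genes fell. *Mtap*, which encodes an enzyme of methionine salvage and is the gene next to *Cdkn2a*, stood at 10.17, 10.07 and 9.97 in M0505 cells and at 10.92, 10.92 and 11.05 in STOSE cells. It was thus higher on every STOSE array, by 0.90 on the log2 scale (standard error 0.07, limma adjusted p = 1.27e-05) and under 2-fold. *Dmrta1*, on the other side, was under the background measure in both lines, as were 4 of the 8 interferon genes, so a change there could not be read. *Ifnz*, at the far edge of the window, was called higher at 1.04 (standard error 0.13), but was at 0.88 without STOSE replicate 1 and at 0.61 when its probe sets were averaged.

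**Figure D3:**
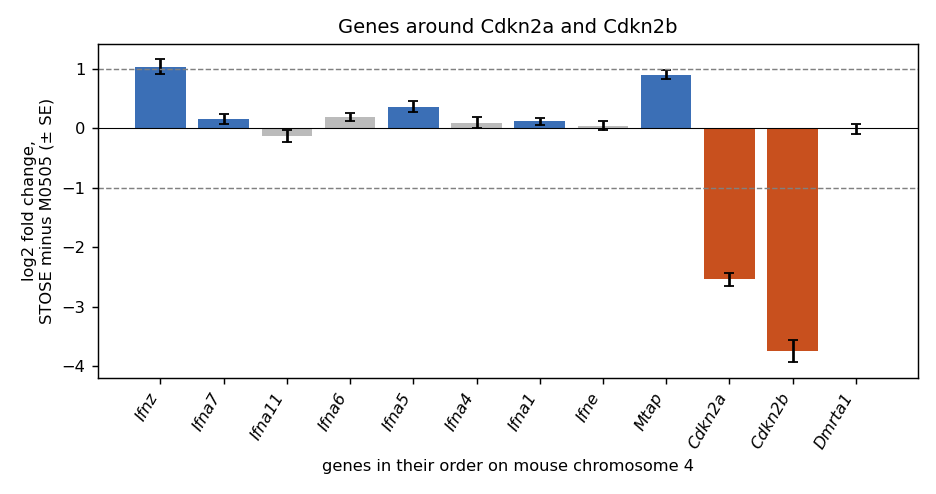
Log2 fold change of STOSE minus M0505 cells (bars, ± standard error from limma) for *Cdkn2a*, *Cdkn2b* (orange) and the 10 other measured genes within 500 kb, in chromosomal order. Blue bars are other genes, grey bars those under the background measure in both lines, dashed lines mark 2-fold, and the bars of the inhibitor genes are the ones that reach below −1.

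Elsewhere the neighbours did not move as the inhibitor gene did in any uniform way. Their counts stand beside 7.59% of all genes called lower and 4.9% called higher. Of 19 genes around *Cdkn1c*, 1 was called lower and 1 higher (*Tspan32*, 1.22). The lower one was its neighbour *Slc22a18*, a transporter gene of the same imprinted domain, at −2.01 on the log2 scale (standard error 0.08, limma adjusted p = 3.27e-07). In the fixed list of that domain it was the 1 called gene of 11 measured, with *Phlda2* at −0.07 and *Ascl2* at 0.01. *Cdkn2c* had 0 of 8 neighbours called by limma and 0 by the methods' t-test. By limma 2 were under an unadjusted p of 0.05, and *Faf1* (0.64) was past the adjusted p. Around *Cdkn3* 1 of 7 was called, *Bmp4*, a growth factor gene of the TGF-beta family. All of its STOSE arrays lay under the background measure, so its fall from a mean of 9.98 is a bound, at least 37.7-fold against that measure (limma adjusted p = 6.82e-09). *Cdkn1a* had 3 of 21 neighbours called lower, *Brpf3*, *Pnpla1* and *Pim1*, of which *Brpf3* was under 2-fold on the median-centred scale (−0.93). *Cdkn1b* had 1 of 16 lower (*Crebl2*, −1.78) and 2 higher (*Emp1*, 2.70, and *Gprc5a*, at least 2.12-fold, since its M0505 arrays lay under the background measure), and *Cdkn2d* had 2 of 36 lower (*Icam1* and *Yipf2*) and 2 higher (*Ppan* and *Spc24*).

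The proteins that the inhibitors act on were examined in lists, beside shares of 4.9% called higher and 7.59% called lower over all genes. Of the 5 targets of INK4 proteins 1 was called: *Ccnd1*, the cyclin D1 gene, stood at 9.34, 8.58 and 8.57 in M0505 cells and rose by 2.63 on the log2 scale to a STOSE mean of 11.46 (SE 0.19, adjusted p = 6.17e-06 from limma). *Cdk6* was higher by 0.32, whereas *Ccnd3* (−0.58), *Ccnd2* (−0.44) and *Cdk4* (−0.27) were lower, all past the adjusted p and under 2-fold. Of the 8 cyclins and kinases that CIP/KIP proteins act on, *Ccna2* was called higher (1.01) and none lower. *Ccna2* lay at the 2-fold limit, with 0.97 without M0505 replicate 3 and 0.997 without STOSE replicate 2. *Ccnb1* (0.99) and *Ccne2* (0.98) came just short of it, and the kinase genes *Cdk2* (0.03) and *Cdk1* (0.05) were not past the test. Among 8 genes that add or remove phosphate on the kinases or the cyclin H complex, the phosphatases *Cdc25b* (1.89) and *Cdc25c* (1.36) were called higher, and *Cdk7* was lower by 0.66, under 2-fold.

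Downstream of the kinases, 13 retinoblastoma and E2F family genes were measured. Of these 3 were called higher and 1 lower, against 4.9% and 7.59% of all genes. *E2f7* rose the most, by 2.70 on the log2 scale (standard error 0.06, limma adjusted p = 1.09e-08), followed by *E2f8* at 1.65 and *E2f2* at 1.06. *E2f7* and *E2f8* encode E2F factors that repress. *Rbl2*, the p130 gene of the retinoblastoma family, fell by 1.10 (standard error 0.08), but stood at −0.98 after a further quantile normalization and at −0.90 on the median-centred scale. *Rb1* was lower by 0.51, under 2-fold, and *E2f1* (0.05) was not past the test. The list's median was 0.50 against 0.08 over all genes.

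Messages of p27 and p21 were level, and the genes for their breakdown were set beside them. Of 15 genes 4 were called higher and none lower, against 4.9% and 7.59% of all genes. *Skp2*, the substrate receptor that marks p27 for breakdown, rose by 1.16 (standard error 0.06, limma adjusted p = 6.69e-07), and *Cks1b*, its cofactor, by 1.22 (standard error 0.07, limma adjusted p = 1.79e-06). *Dtl*, the receptor for p21 on replicating DNA, rose by 1.63, and *Cdc20* by 2.04. The list's median was 0.04, and *Cul4a* was lower by 0.85, under 2-fold. Calls of this kind were not particular to breakdown genes: of the 25 other proliferation genes 11 were called higher and 0 lower, with a median of 0.91. Protein levels were not measured on these arrays. Of 5 forkhead genes *Foxm1* was called higher (1.17), while *Foxo3*, an activator of *Cdkn1b*, was lower by 0.96, just under 2-fold. *Foxo6* (0.54) and *Foxo1* (0.36) were higher and *Foxo4* (−0.34) lower, past the adjusted p alone.

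On the axis from ARF to p53, 0 of 9 genes were called by limma and 0 by the methods' t-test, and 6 were past the adjusted p alone (6 also at an unadjusted p of 0.05), 3 in each direction. *Bcl6* was lower and came just short of 2-fold, and 1 gene of the list was called lower without M0505 replicate 1, M0505 replicate 3, STOSE replicate 1 or STOSE replicate 2. *Mdm2* was lower by 0.21 and *Trp53* higher by 0.21. The shares over all genes were 7.59% called lower, 4.9% called higher and 56.5% past the adjusted p alone. Of 26 p53 target genes other than *Cdkn1a*, 5 were called lower (*Sesn1*, *Trp53inp1*, *Btg2*, *Ddit4* and *Gadd45a*) and 1 higher (*Plk2*, 2.12), with a list median of −0.16. Of these, *Ddit4* (−0.95) and *Gadd45a* (−0.88) were under 2-fold with each array centred on its median, which also turned the list median to 0.04. *Gadd45a* was under it as well without M0505 replicate 1 (−0.95), STOSE replicate 2 (−0.98) or STOSE replicate 3 (−0.99). Only 3 of the 26 had a smaller absolute change than *Cdkn1a*.

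Regulators of the *Cdkn2a* and *Cdkn2b* locus gave calls both ways, to be read beside the 4.9% of all genes called higher and the 7.59% called lower. Of 27 Polycomb and other regulators measured, 2 were called higher and 4 lower. *Ets1*, an activator of p16 transcription, rose by 2.29 (standard error 0.07), and *Id1*, which opposes it, fell 2.30-fold (standard error 0.19 on the log2 scale), while *Id3* fell by 2.74 on the log2 scale and *Id2* rose by 1.41. *Jarid2*, of Polycomb complex PRC2, fell 2.63-fold, and the methyltransferase gene *Ezh1* fell by 1.07 on the log2 scale. *Ezh1* stood at −0.87 on the median-centred scale. *Ezh2* (0.56), *Suz12* (0.57) and *Eed* (0.67), the PRC2 core, were higher and under 2-fold, and *Bmi1* (0.14) was not past the test. Of 19 genes of TGF-beta, MIZ1 and MYC control, 4 were higher (*Mycn*, *Tgfbr3*, *Klf4* and *Klf6*) and 2 lower (*Smad6*, −2.13, and *Tgfb3*, −1.82). *Tgfbr3*, at 1.15, was at 0.98 without M0505 replicate 1. *Myc*, which represses *Cdkn2b* through MIZ1, was higher by 0.66, and the MIZ1 gene *Zbtb17* by 0.67, both under 2-fold.

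**Figure D4:**
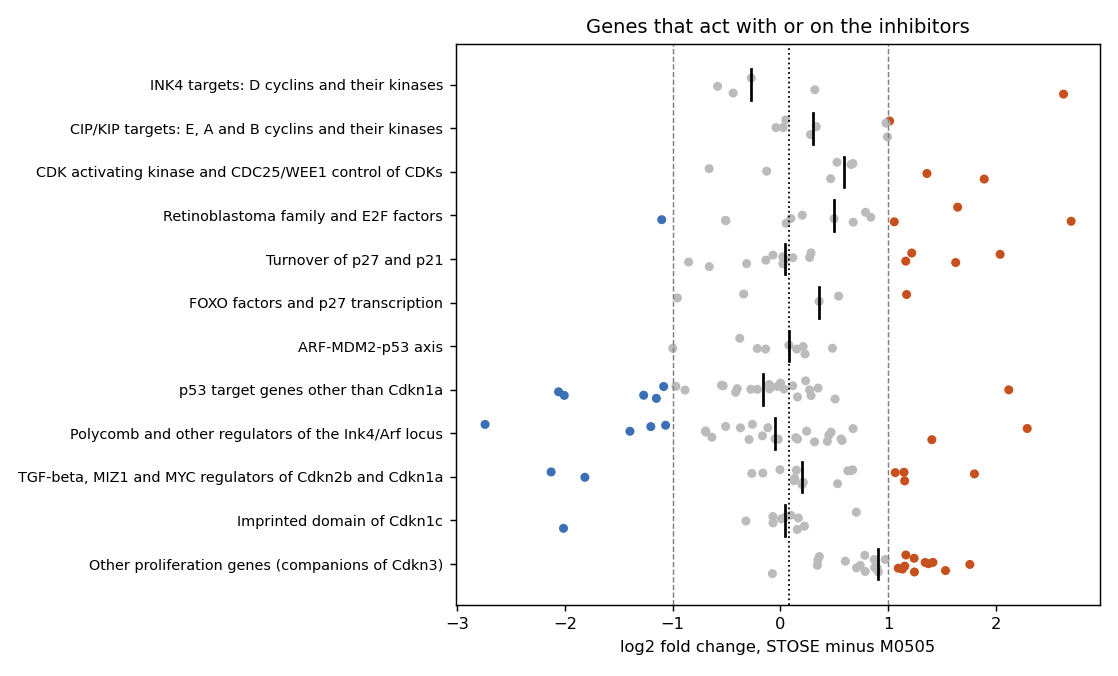
Log2 fold change of STOSE minus M0505 cells for each measured gene (points, spread vertically to separate them) of the 12 lists, with genes called higher in orange, lower in blue and not called in grey. Black bars are list medians, from −0.27 for the INK4 targets to 0.91 for the proliferation genes, and the dotted line is the median of all genes, 0.08.

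Markers of the label were present but not equal in the lines. All 10 surface epithelium markers had means above 4.74 in both lines, a level that 69.8% of the values of all genes exceeded. In STOSE cells 7 of the 10 were lower past the adjusted p. Over all genes 24.8% were lower past the adjusted p, and 7.59% were called lower. *Krt19* (−5.56), *Krt8* (−4.55) and *Krt7* (−1.03) were called lower, and *Krt18* (−0.84), *Wt1* (−0.63), *Msln* (−0.61) and *Upk3b* (−0.34) were lower and under 2-fold. *Lgals7* went the other way, higher by 0.43 past the adjusted p and under 2-fold, and *Cdh2* (0.18) and *Cdh1* (0.03) were not past the test. *Krt7* was also under 2-fold on the median-centred scale (−0.83) and without M0505 replicate 2 (−0.99), M0505 replicate 3 (−0.997) or STOSE replicate 1 (−0.89). The leukocyte gene *Ptprc* was at 3.79 in M0505 and 3.81 in STOSE cells, and the endothelial gene *Pecam1* at 4.69 and 4.33, all under the background measure. *Pecam1* does not stand for its list, since 5 of the 6 endothelial markers had means above that measure in M0505 cells and 4 in STOSE cells. Among the 7 leukocyte markers 2 were above it in each line. Single genes of those lists did move, with *Cd68* at −2.82 and *Kdr* at least 28.6-fold lower (all its STOSE arrays lay under the background measure), and so did *Inha* (−3.93) and *Acta2* (2.33). The log2 of the summed level lay at 14.37 to 14.41 on M0505 arrays and 13.47 to 13.58 on STOSE arrays for the surface epithelium markers. It lay at 9.71 to 10.10 on M0505 arrays and 7.88 to 8.12 on STOSE arrays for the 7 leukocyte markers, at 9.80 to 9.93 and 7.50 to 7.60 for the 6 endothelial ones, at 9.82 to 10.00 and 7.72 to 7.90 for the 7 granulosa ones, and at 10.33 to 10.49 and 11.89 to 12.20 for the 6 of smooth muscle and stroma. The sums of these last lists were also taken without the gene that changed most in each, a choice made after seeing the data. Without *Cd68* the leukocyte sum was 6.84 to 6.93 and 6.95 to 7.04, without *Kdr* the endothelial one 7.23 to 7.35 and 7.30 to 7.47, and without *Inha* the granulosa one 7.48 to 7.61 and 7.35 to 7.48. Without *Acta2* the sum of smooth muscle and stroma was 9.43 to 9.57 and 10.29 to 10.38. Of these reduced sums only the endothelial ranges overlapped between the lines. The leukocyte and granulosa ranges lay close together without overlap, the leukocyte sum now being the higher in STOSE cells. The medians of the log2 fold changes of the leukocyte, endothelial and granulosa lists were 0.03, 0.09 and 0.11. The part of these markers in the fall of *Cdkn2a* and *Cdkn2b* was not tested.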

How the data were processed

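RNA of M0505 and STOSE cells was read on Affymetrix Mouse Gene 1.0 ST chips, 3 per line, labelled as biological replicates. The authors deposited log2 values for 28944 probe sets, normalized by RMA (background correction, quantile normalization, summary per probe set), for which the submitters' processing notes name Affymetrix Expression Console. Its version, the annotation release and the genome build are not given in the sources used here. The table also holds the authors' mean of each line and a linear fold change, which were not used. All 6 columns of values were matched to arrays by name.

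Probe sets with a symbol (23530) were reduced to the one with the highest mean per gene, leaving 20405 genes. The comparison of lines used limma 3.58.1 (lmFit, then eBayes; R 4.3.3). No covariate was fitted, and p-values were adjusted by Benjamini-Hochberg over all genes. The limma step alone, written out apart from the rest of the code, was tested on simulated data. An array has no read depth, and 3 arrays per line limit the precision, since the smallest two-sided exact permutation p is 0.1. Genes were named by rule: the 8 members, called list members, members of lists of under 6 genes, called genes within 500 kb and the 2 nearest genes by pattern; others were chosen after their values were seen. Promoters and gene order are from RefSeq, GRCm38.p6 (97.5% of genes placed), and the arrays' own coordinates were not used. The members and lists were chosen with earlier results of these data known, and the background measure was too. Alternatives were other scalings, filters on dim genes, other uses of probe sets, other tests and fold thresholds, leaving out each array and a replicate block.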

Additional observations from a re-analysis of the deposited data

How the results depend on the processing

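*Cdkn2a* and *Cdkn2b* stayed called lower under the alternatives run. Among the level genes the direction turned for *Cdkn1a* with each array centred on its median (0.14), for *Cdkn1b* with its dimmer probe set (−0.024, chosen after seeing the data), and for *Cdkn1c* without M0505 replicate 1 or STOSE replicate 3 (range with each array left out −0.12 to 0.083). *Cdkn2c* (0.63) and *Cdkn3* (0.41) passed with no fold threshold, which gave 2 members called higher. Of all genes 1499 were called by limma's treat (994 of them lower), 11520 with no fold threshold (5066 lower) and 695 at 4-fold (509 lower), against 2548 (1548 lower). Of the list genes 15 were called higher and 7 lower by treat, 86 higher and 44 lower with no fold threshold, and 5 higher and 5 lower at 4-fold, against 30 higher and 13 lower. List medians turned for the ARF and p53 axis without M0505 replicate 3 (range with each array left out −0.0068 to 0.12), for the p53 targets on the median-centred scale (0.041), for the Polycomb list on that scale (0.15) and after a further quantile normalization (0.092), and for the *Cdkn1c* domain after the latter (−0.028). With a replicate block the calls were 1001 higher and 1548 lower, and *Cdkn2a* (adjusted p = 9.28e-06 from limma) and *Cdkn2b* (2.47e-05) kept theirs. Deviations of same-numbered arrays correlated at 0.26, 0.04 and 0.25. Because the second value is near 0, the numbers were not taken to pair the arrays, although 5 of 6 arrays correlated best with their own number. The block changed no call of the 8 genes. *Cdkn1c* gave no value under the stricter filter on dim genes, which left it out. Signal over background limits *Cdkn1c* and the STOSE values of *Cdkn2a* and *Cdkn2b*, and 3 arrays per line limit all.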
